A study of Mus musculus with 17 samples.

Results

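Levels of 10 genes of glutathione metabolism and the Nrf2 oxidative stress response were followed in 17 single 2-cell mouse embryos. The members were Gclm, Gclc, Gss, Gsr, Txnrd1, Srxn1, Nqo1, Hmox1, Sqstm1 and Nfe2l2. Each had exactly 1 row (probe set) on the array, so the 10 member rows were all rows annotated with these symbols, of 21780 rows with a single gene symbol for 19935 genes. The genes were chosen from known functions, with the levels of Gclm in single embryos and the group differences of Gclm, Hmox1 and Sqstm1 in view. Those values are therefore given as a description, with no test. The question was whether embryos with a high level of Gclm also had high levels of the other genes.

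The PJ34 embryos were 10 embryos fathered by 3 wild-type males that had been injected daily for 6 weeks with PJ34, which inhibits PARP1 and PARP2, the enzymes that make poly(ADP-ribose). Sires MTM11 and MTM13 fathered 4 of them each and MTM14 fathered 2. The control embryos were 7 embryos of 3 males given saline, of which sires B and D fathered 3 each and A fathered 1. The labels also call the control fathers untreated. All animals were of the inbred strain 129SVE, with no engineered allele, and the mothers were untreated wild-type females that mated naturally. The embryos themselves were not dosed, and each arose from 1 sperm. Embryos are named here by sire and number. Embryos of 1 sire share that sire, so the p-values below measure the spread between embryos and not between treated males.

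Glutathione is made in 2 steps, of which the first, catalysed by glutamate-cysteine ligase, limits the rate. GCLC is the catalytic subunit of that ligase and GCLM its modifier subunit, and GSS (glutathione synthetase) completes the tripeptide. The transcription factor NRF2, encoded by Nfe2l2, is held at low levels by KEAP1 and accumulates under oxidative or electrophilic stress. With a small MAF protein it then binds antioxidant response elements and activates genes such as Gclm, Gclc, Txnrd1, Srxn1, Nqo1 and Hmox1. The oocyte stores glutathione that the early embryo draws on, and the 2-cell stage is when the mouse embryo begins most of its own transcription.

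The core of the antioxidant response element, TGACNNNGC, was looked for on both strands of RefSeq promoter windows of 300 bases (250 before to 50 after the transcription start, build GRCm38.p6). The sequences are shown because they hold the letters of the element that NRF2 binds at its targets. The table held windows for 7 of the 10 members, and Gclc, Gsr and Hmox1 had no entry. The element's letters were present for 4 of these 7 genes, in 4 of their 9 windows, against 12.4% of all 32851 windows. A match shows the letters and not a bound site. The members were chosen from known functions, so their share is a description. Each stretch is written 5′ to 3′ on the gene's own strand, in lower case with the element in capitals; where it lies on the opposite strand it reads GCNNNGTCA. The Gclm stretch (chr3:122245413-122245441, plus strand) begins its element 134 bases before the start. That of Txnrd1 (chr10:82859104-82859132, plus strand), in 1 of 3 windows, begins 92 bases before the start. That of Srxn1 (chr2:152105542-152105570, plus strand) lies after the start, at position 28. That of Nfe2l2 itself (chr2:75704885-75704913, minus strand) begins 240 bases before the start.
Gclm: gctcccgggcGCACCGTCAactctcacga
Txnrd1: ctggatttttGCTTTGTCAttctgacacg
Srxn1: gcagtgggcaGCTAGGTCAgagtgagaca
Nfe2l2: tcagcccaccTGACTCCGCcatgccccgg
The whole Gclm upstream window (chr3:122245307-122245556, 250 bases) is given as the setting of that element, since Gclm is the gene to which the others are compared below.
Gclm upstream: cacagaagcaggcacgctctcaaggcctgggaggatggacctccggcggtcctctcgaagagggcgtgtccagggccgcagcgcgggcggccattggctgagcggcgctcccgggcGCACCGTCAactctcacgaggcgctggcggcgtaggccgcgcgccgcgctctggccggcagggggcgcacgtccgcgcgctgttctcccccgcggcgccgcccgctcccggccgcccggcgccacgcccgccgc

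All levels are log2 RMA intensities, so a difference of 1 is a factor of 2, and levels are compared between embryos and not between genes. A row mean is set against those of all rows only to mark a low signal. A row is called where its p, adjusted over all rows by the Benjamini-Hochberg method, is below 0.1. Array medians lay between 6.12 and 6.23, and the precision was set by the number of embryos. The mean level of 14 rows for 12 genes of 2-cell embryos lay below that of all control embryos in 4 PJ34 embryos. It was 8.47 in MTM13-4, 8.64 in MTM14-1, 8.81 in MTM11-3 and 8.83 in MTM14-2, against 8.91 to 9.35 in control embryos. Zfp352, a transcript of the 2-cell stage, measured 6.2 in MTM13-4, against 9.46 to 12.43 in the other PJ34 embryos and 8.95 to 11.18 in control embryos. In MTM14-1 it measured 11.31, above all control embryos. Pou5f1, the pluripotency factor, measured 11.30 in MTM13-4 and 10.65 in MTM14-1, against 11.60 to 11.88 in control embryos, and Usp17lb measured 7.07 and 6.58 in them, against 9.04 to 10.37 in control embryos. Zfp352, Pou5f1 and Usp17lb were named after their values were seen. In MTM13-4 and MTM14-1 most other rows of the list lay inside the control range. Results for Gclm and Gclc are also given without MTM13-4 and MTM14-1, which had the lowest means, a choice made after seeing the data. MTM11-3 and MTM14-2 were kept.

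Gclm was higher in most PJ34 embryos than in any control embryo. It measured 7.45, 6.94, 6.44 and 8.29 in embryos MTM11-1 to MTM11-4, then 7.01, 6.38, 6.33 and 8.65 in MTM13-1 to MTM13-4, and 7.55 and 7.03 in MTM14-1 and MTM14-2. In control embryos it measured 6.62 in A-2, 6.51, 6.46 and 6.35 in B-1 to B-3, and 6.29, 6.53 and 6.39 in D-1 to D-3. Thus 7 PJ34 embryos, including some of every sire, lay above all control embryos, and 3 lay inside the control range. Gclm averaged 7.21 ± 0.79 in PJ34 embryos and 6.45 ± 0.12 in control embryos (SD, n = 10 and 7). The difference was 0.76, 1.69-fold. It was 0.60 without MTM13-4, 0.72 without MTM14-1 and 0.53 without both. The standard deviation was 6.86 times as large in PJ34 embryos as in control embryos, in a gene chosen with these levels in view. For the other members this ratio lay between 0.41 (Nqo1) and 1.75 (Gclc). Over all rows the median standard deviation was 0.18 in both groups. By sire, Gclm averaged 7.28 ± 0.79 for MTM11 (n = 4), 7.09 ± 1.08 for MTM13 (n = 4) and 7.29 ± 0.36 for MTM14 (n = 2), so the means of the sires differed by less than the spread within each.

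**Figure D1:**
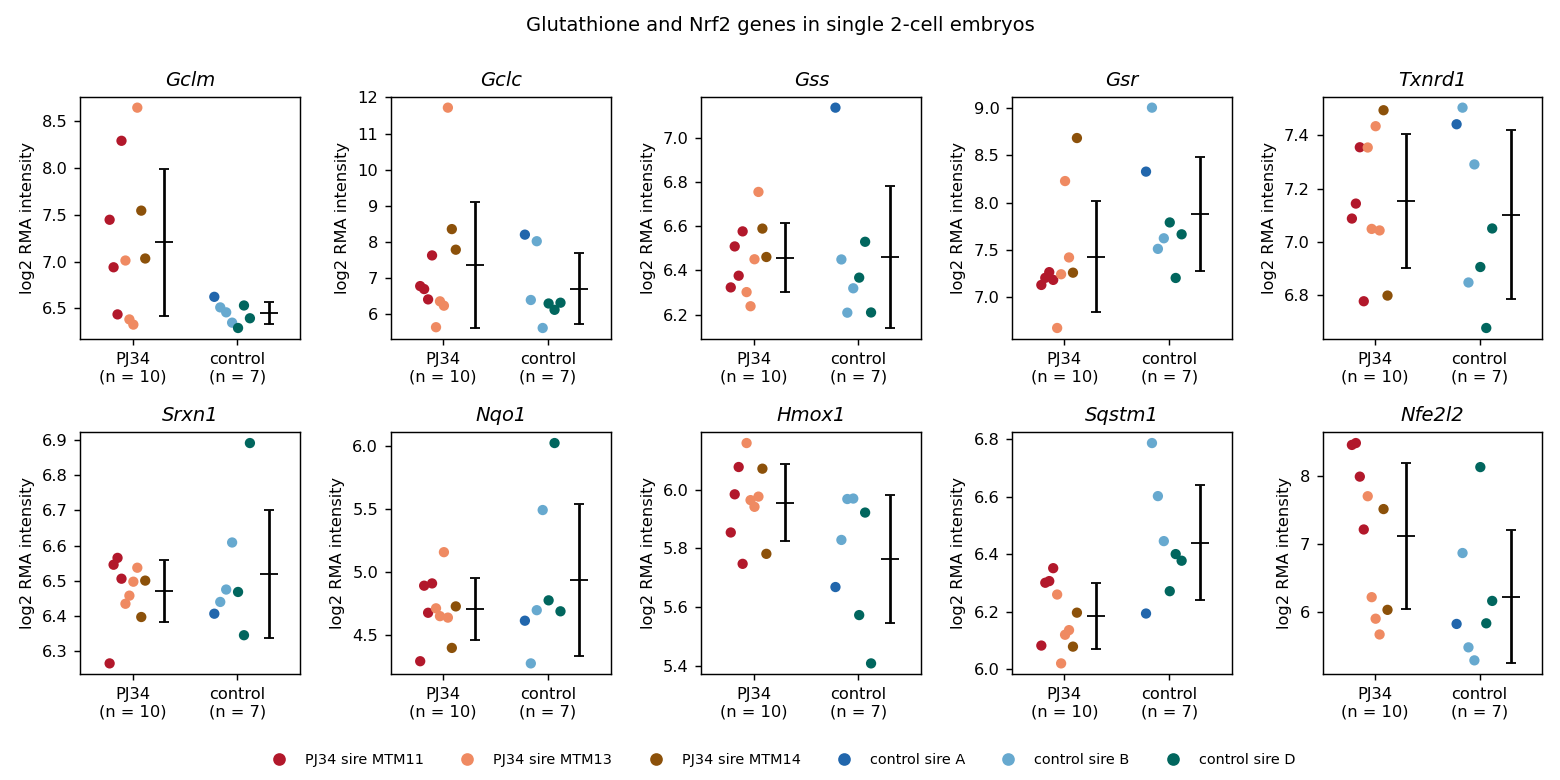
Level of each of the 10 genes (log2 RMA intensity; scales differ between panels) in 10 PJ34 embryos, left, and 7 control embryos, right, coloured by sire; bars give mean and SD. Gclm lies above all control embryos in 7 PJ34 embryos, and Gclc of MTM13-4 lies at 11.72.

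Gclc, the catalytic partner of Gclm, varied widely among embryos of both groups. Its levels were 6.78, 6.70, 6.42 and 7.63 in MTM11-1 to MTM11-4, then 5.65, 6.36, 6.24 and 11.72 in MTM13-1 to MTM13-4, and 8.36 and 7.79 in MTM14-1 and MTM14-2. In control embryos they were 8.21 in A-2, 6.40, 8.02 and 5.62 in B-1 to B-3, and 6.30, 6.13 and 6.32 in D-1 to D-3. The groups overlapped almost wholly, except for MTM13-4 and MTM14-1, which lay above all control embryos. Between the lowest and the highest of the 17 embryos Gclc differed by 6.09, a factor of 68.2, and its spread within groups was larger than that of 99.1% of all rows. Without MTM13-4 the range was 2.73, a factor of 6.65, and the spread was larger than that of 95.9% of rows. The pooled standard deviation within groups was then 0.92 for Gclc and 1.00 for Nfe2l2, against 1.48 and 1.04 with that embryo. It averaged 7.36 ± 1.73 in PJ34 embryos and 6.72 ± 0.99 in control embryos (SD, n = 10 and 7). The difference of 0.65 (95% interval -0.81 to 2.11) did not pass the limma test (adjusted p = 0.926). It was 0.17 without MTM13-4, 0.54 without MTM14-1 and -0.02 without both.

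Gss, the enzyme of the second step of glutathione synthesis, had a mean of 6.46 in both groups. It was 6.24 in the lowest PJ34 embryo, 6.46 at the median and 6.75 in the highest, MTM13-4, against 6.21, 6.37 and 7.14 in control embryos, of which A-2 was the highest. The difference was -0.00209 (95% interval -0.24 to 0.24; limma adjusted p = 0.9996). Without A-2 it was 0.11, and that still did not pass (adjusted p = 0.851).

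Gsr, glutathione reductase, regenerates glutathione from its oxidised form with NADPH. Its level was 6.68 in the lowest PJ34 embryo, 7.25 at the median and 8.68 in the highest, against 7.21, 7.67 and 9.0 in control embryos. Of the PJ34 embryos, 3 lay below all control embryos and 8 below the control mean, but MTM13-3 at 8.23 and MTM14-2 at 8.68 were among the highest of all. The difference of -0.45 (95% interval -1.03 to 0.14) did not pass (limma adjusted p = 0.882).

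The thioredoxin and peroxiredoxin arm and the quinone reductase gave intervals that included 0. Txnrd1, cytosolic thioredoxin reductase, averaged 7.15 ± 0.25 in PJ34 embryos and 7.10 ± 0.32 in control embryos (difference 0.05, 95% interval -0.23 to 0.33, limma adjusted p = 0.969). Srxn1, sulfiredoxin, which repairs over-oxidised peroxiredoxins, averaged 6.47 ± 0.09 in PJ34 embryos and 6.52 ± 0.18 in control embryos (difference -0.05, 95% interval -0.19 to 0.10, limma adjusted p = 0.943). Its extremes were MTM11-1 at 6.26, below all control embryos, and control embryo D-3 at 6.89. Nqo1, NAD(P)H quinone dehydrogenase and a much used reporter of Nrf2 activity, averaged 4.70 ± 0.25 in PJ34 embryos and 4.94 ± 0.60 in control embryos (difference -0.23, 95% interval -0.66 to 0.19, limma adjusted p = 0.917). No PJ34 embryo lay above all control embryos for Nqo1, and 2 control embryos, D-2 at 6.02 and B-3 at 5.49, lay above all PJ34 embryos. The difference shrank to -0.05 without D-2. The Nqo1 row was low on the array, with a mean of 4.8 over all embryos, below the first quartile of row means, 5.33.

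Hmox1 and Sqstm1 were among the genes chosen on their group difference. Hmox1, heme oxygenase, measured 5.75 in the lowest PJ34 embryo, 5.97 at the median and 6.16 in the highest, against 5.41, 5.83 and 5.97 in control embryos. Its mean of 5.88 over all embryos lay below the median of row means, 6.25. The difference was 0.19, with 9 of 10 PJ34 embryos above the control mean and 5 above all control embryos. It was 0.10 without the control sire D, whose D-1 and D-3 were the lowest of all embryos at 5.57 and 5.41. Sqstm1, the autophagy receptor p62, which binds KEAP1 and is also a target of NRF2, ran the other way. It measured 6.02 in the lowest PJ34 embryo, 6.17 at the median and 6.35 in the highest, against 6.19, 6.40 and 6.79 in control embryos. Every one of the 10 PJ34 embryos was under the mean of control embryos, and 5 were under all of them. The difference was -0.25, and -0.13 without the control sire B.

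Nfe2l2, the gene of NRF2 itself, also varied widely, with a spread within groups larger than that of 97.1% of all rows. Its levels were 8.46, 8.49, 7.99 and 7.21 in MTM11-1 to MTM11-4, then 7.70, 6.22, 5.90 and 5.67 in MTM13-1 to MTM13-4, and 7.52 and 6.03 in MTM14-1 and MTM14-2. In control embryos they were 5.82 in A-2, 6.87, 5.48 and 5.29 in B-1 to B-3, and 8.13, 5.83 and 6.16 in D-1 to D-3. All 4 embryos of MTM11 were above 7, as were MTM13-1, MTM14-1 and, alone among control embryos, D-1. Nfe2l2 averaged 7.12 ± 1.08 in PJ34 embryos and 6.23 ± 0.98 in control embryos (SD, n = 10 and 7), a difference of 0.89 (95% interval -0.13 to 1.92; 1.86-fold) that did not pass (limma adjusted p = 0.866). The embryos of MTM11 alone averaged 8.04 ± 0.59 (n = 4), 1.81 above control embryos (95% interval 0.68 to 2.94; limma adjusted p = 0.850). Those of MTM13 averaged 6.37 ± 0.92 (n = 4) and those of MTM14 6.77 ± 1.05 (n = 2). Without sire MTM11 the group difference was 0.28, and without sire MTM13 it was 1.39.

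Over the 10 members, 5 had a higher and 5 a lower mean in PJ34 embryos, with a median difference of 0.02, beside a median of -0.02 over all rows. At an adjusted p below 0.1 no row of any gene was called between the groups (0% of 21780), and 5.89% of rows had an unadjusted p under 0.05. None of the members tested was under that unadjusted level. Gclm, Hmox1 and Sqstm1, chosen with this difference known, were not tested. By sire, 0.00459% of rows were called for MTM11, 0% for MTM13 and 0.0551% for MTM14, none of them a member that was tested. A moderated F test for a difference among the PJ34 sires called 0.0138% of rows and had an adjusted p of 0.99973 for each member tested.

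Each PJ34 embryo was then set against the 7 control embryos, with the spread taken from control embryos. In MTM11-1 to MTM11-4 this called 0.868%, 0.289%, 0.537% and 0.579% of rows. In MTM13-1 to MTM13-4 it called 0.918%, 0.491%, 0.551% and 0.615%, and in MTM14-1 and MTM14-2 it called 0.62% and 0.34%. Leaving aside Gclm, Hmox1 and Sqstm1, no member was called in any embryo. The nearest was Gclc in MTM13-4, which at 5.0 above the control mean was 32.0-fold higher and had an adjusted p of 0.111 in limma. Gclc in MTM13-4 passed the threshold with the spread of all embryos and among rows above the median level. It also passed without A-2 or B-2, the control embryos with the highest Gclc (8.21 and 8.02), where the difference was 5.25 and 5.22. Without B-1, B-3, D-1, D-2 or D-3 it did not pass, and the difference lay between 4.82 and 4.95. Gclc in MTM14-1 was 1.64 above the control mean (3.12-fold, limma adjusted p = 0.853). Nfe2l2 was 2.23 and 2.26 above the control mean in MTM11-1 and MTM11-2 (limma adjusted p = 0.655 and 0.806) and 0.56 below it in MTM13-4, the embryo with the highest Gclm.

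**Figure D2:**
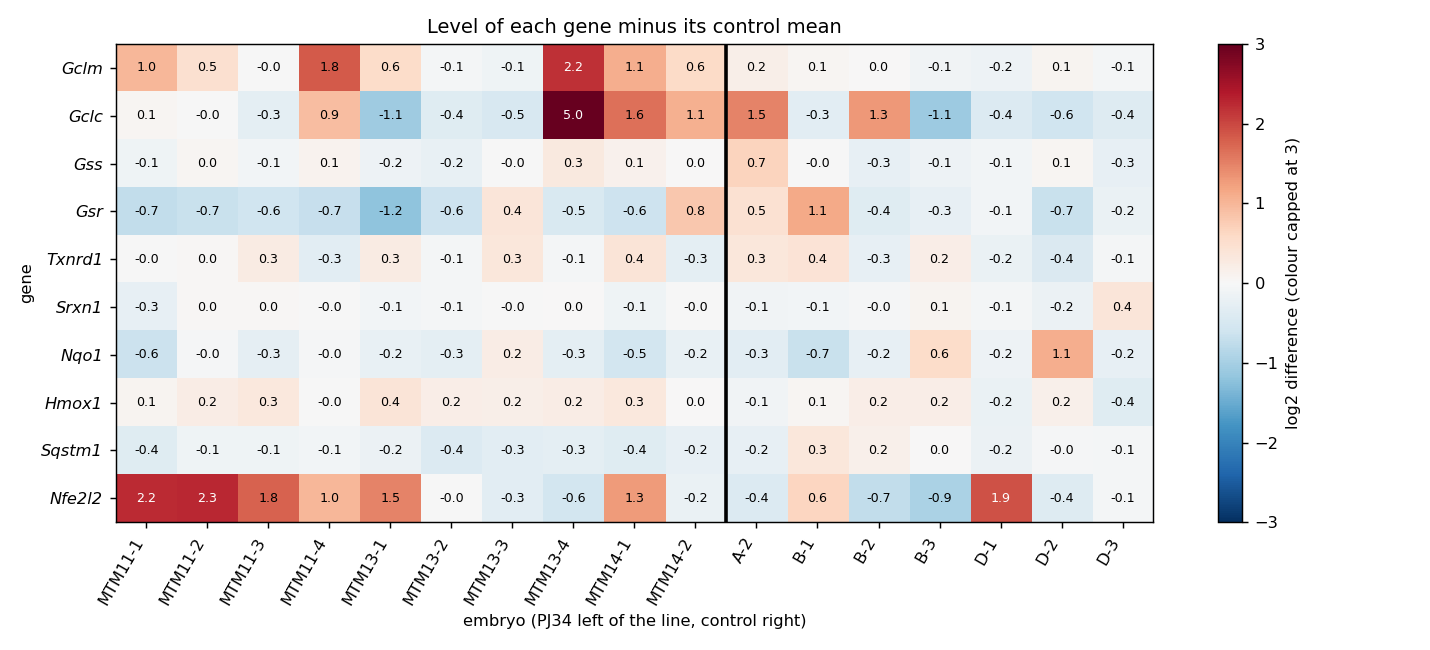
Level of each gene minus its mean over control embryos (log2), with PJ34 embryos left of the line and control embryos right of it. The high values of Gclm (MTM13-4, MTM11-4, MTM14-1, MTM11-1) share a column with a high Gclc in some embryos. The high values of Nfe2l2 lie in the 4 embryos of MTM11 and in MTM13-1, MTM14-1 and the control embryo D-1.

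Whether the members went with Gclm was read from 9 correlations across the 17 embryos with the group means removed, each with a permutation p from shuffles within groups. Gclc had the highest. Its Pearson r with Gclm was 0.74 (permutation p = 0.00261) and its Spearman rho 0.63 (permutation p = 0.00812). Within PJ34 embryos r was 0.79 (permutation p = 0.0047, n = 10), and within control embryos 0.59 (exact permutation p = 0.187, n = 7). The value rested in part on MTM13-4, the highest embryo for both genes: without it r was 0.50, and without MTM13-4 and MTM11-4, which lay farthest from the median of Gclm, r was 0.49 (permutation p = 0.0504). The slope of Gclc was 1.78 for each unit of Gclm (95% interval 0.92 to 2.65, unadjusted p = 0.000491), but over all 21779 rows tested the adjusted p in limma was 0.317. Without MTM13-4 the slope was 0.94 (adjusted p = 0.797), and without MTM14-1 as well it was 0.75, with an r of 0.43 (adjusted p of the slope 0.816). Embryos with a raised Gclm did not all have a high Gclc: MTM13-1, at 7.01 for Gclm, had the second lowest Gclc of all embryos. Among control embryos, B-2 had a Gclc of 8.02 at a Gclm of 6.46, the median of its group, and A-2 was the highest for both genes.

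Gss also had a positive correlation with Gclm, with an r of 0.46 (permutation p = 0.00198) and a rho of 0.53 (permutation p = 0.0254). It was 0.75 within PJ34 embryos (permutation p = 0.0116, n = 10) and 0.74 within control embryos (exact permutation p = 0.0413, n = 7), where A-2 was the highest embryo for both genes. Without MTM13-4 and MTM11-4, r was 0.29 (permutation p = 0.0675). The slope was 0.18 (95% interval -0.01 to 0.36, unadjusted limma p = 0.0664), with an adjusted p of 0.728 over all rows in limma. The permutation p-values were not adjusted over the members, and the shuffles crossed sires. Gclc and Gss had an r of 0.57 with each other, and of 0.53 without MTM13-4.

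For the other members no permutation p for a relation with Gclm was under 0.05 over the 17 embryos. Their r was -0.27 for Txnrd1, -0.16 for Hmox1, -0.13 for Gsr, -0.12 for Nqo1, -0.10 for Nfe2l2, -0.08 for Srxn1 and 0.08 for Sqstm1, with permutation p between 0.268 and 0.725. Without MTM13-4 and MTM11-4 the r of Srxn1 was -0.41 (permutation p = 0.024), with an adjusted p of 0.959 for its slope over all rows in limma. In limma their slopes had adjusted p between 0.862 and 0.978. The median r of the 9 members was -0.10 with 3 above 0, beside a median of 0.10 over all other rows, of which 64.3% were above 0. In the same fit 0.00459% of rows were called, and 7.03% had an unadjusted p under 0.05, as Gclc did among the 9 members. The intervals were wide. For Nfe2l2 the slope was -0.17 (95% interval -1.07 to 0.73), and without MTM13-4 it was 0.40. The 3 embryos with the highest Nfe2l2, MTM11-2, MTM11-1 and the control D-1, had Gclm levels of 6.94, 7.45 and 6.29.

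**Figure D3:**
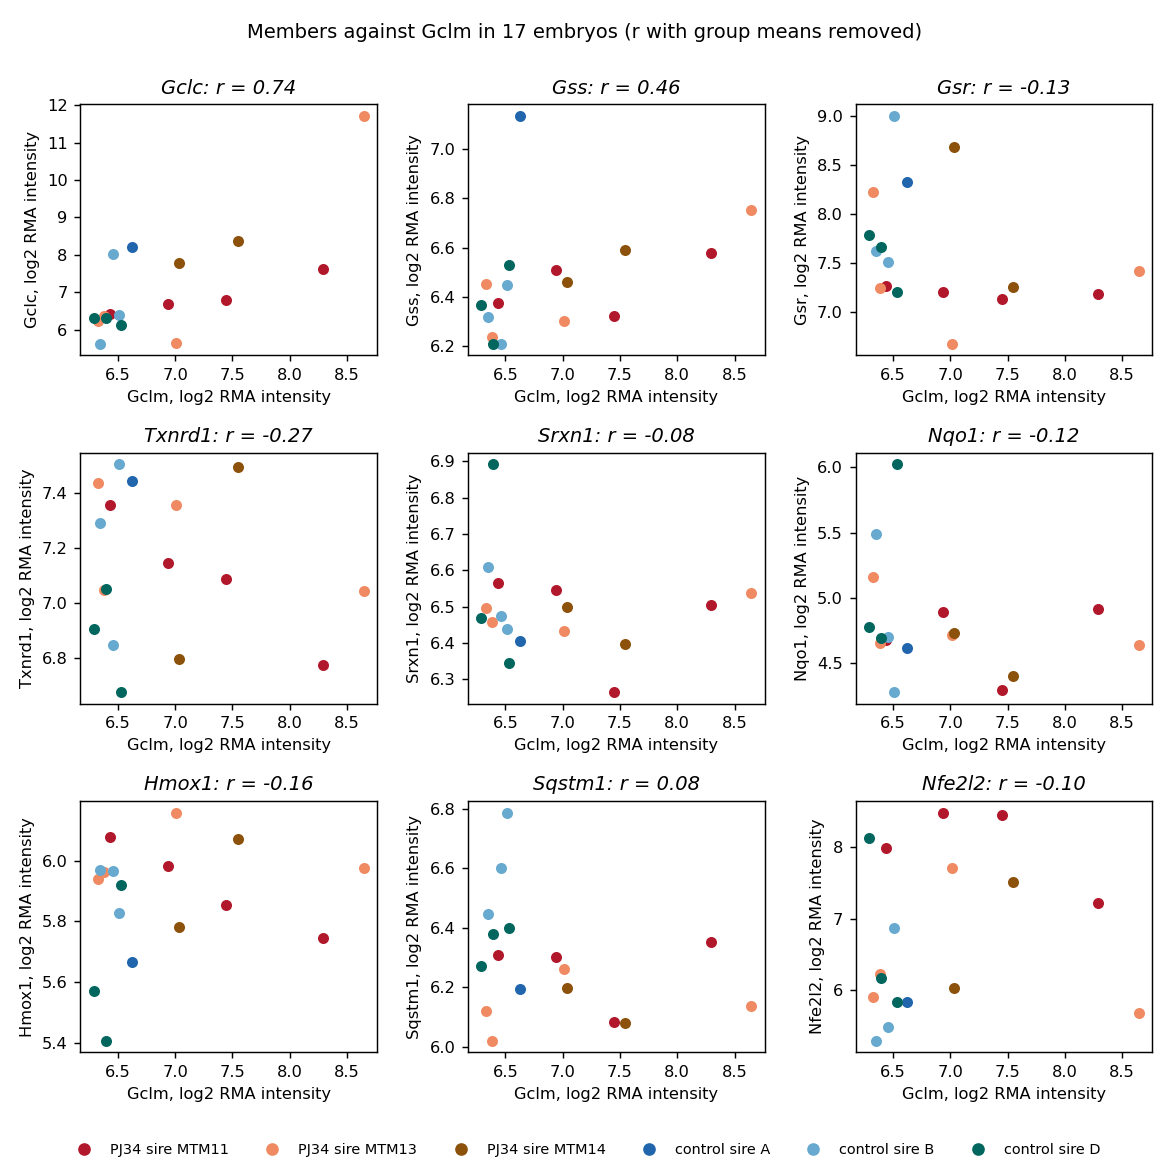
Level of each of 9 members against the level of Gclm (both log2 RMA intensity) in the 17 embryos, coloured by sire, with Pearson r after removal of group means. Gclc and Gss have positive r, 0.74 and 0.46, and the point at the top right of the Gclc panel is MTM13-4.

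Other values were also read in MTM13-4, MTM11-4 and MTM14-1, the 3 embryos with the highest Gclm. The mean of 12 rows for cumulus and granulosa markers was 5.36, 5.34 and 5.28 in them, against 5.17 to 5.35 in control embryos, and 5.09 to 5.36 over all PJ34 embryos. For these rows MTM11-2, with a Gclm of 6.94, had a mean of 5.345, so the means did not set the 3 embryos apart. The median r of these rows with Gclm was 0.39, beside 0.29 for sperm and spermatid markers, 0.13 for oviduct and blood markers and 0.10 for all rows. Every cumulus and granulosa row had both group means below the median of row means, 6.25, as did most sperm and spermatid rows. The mean of 11 rows for oviduct and blood markers was 5.97, 5.89 and 5.98, above the 5.63 to 5.80 of all control embryos, and spanned 5.69 to 5.98 over PJ34 embryos. Of these 11 rows, 8 lay above all control embryos in none of the 3 embryos, among them the epithelial genes Krt7, Krt19 and Foxj1. Pax8 did so in MTM11-4 (6.90) and MTM14-1 (6.81) but not in MTM13-4 (6.65), against 6.47 to 6.76 in control embryos. The other 2 rows did so in each of the 3 embryos. Of the 2, Epcam, an epithelial adhesion molecule, measured 8.72, 8.80 and 8.57 in the 3 embryos and 7.30 to 8.38 in control embryos. Lyz2, lysozyme of myeloid cells, measured 6.30, 5.37 and 6.61, against 4.84 to 5.15 in control embryos, and was called higher in 2 embryos. It also lay above all control embryos in MTM13-3, at 5.45, the PJ34 embryo with the lowest Gclm. In MTM13-2 and MTM14-2 it lay just above them. Ptprc, the pan-leukocyte marker CD45, lay between 4.64 and 4.96 in PJ34 embryos and between 4.63 and 4.95 in control embryos. The mean of 21 rows for transcripts stored in the oocyte spanned 9.42 to 9.71 in PJ34 embryos and 9.53 to 9.81 in control embryos, and that of 10 rows for sperm and spermatid markers 5.61 to 5.85 in PJ34 embryos and 5.56 to 5.84 in control embryos. The part of these transcripts in the levels of Gclm and Gclc was not tested.

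The rows most like Gclm across the 17 embryos were not glutathione genes. By r with group means removed they were Hgfac (0.88), Clec5a (0.86), Il18bp (0.85), Parp16 (0.85) and Srsy (0.85). Hgfac is a serine protease that activates hepatocyte growth factor, Clec5a a myeloid C-type lectin, Il18bp a soluble inhibitor of an interleukin and Parp16 a mono(ADP-ribosyl) transferase of the endoplasmic reticulum. Their slopes were small, from 0.17 for Clec5a to 0.48 for Srsy, and none passed (limma adjusted p from 0.135 to 0.286). The most opposite rows were Sat1 (-0.88), Cdc73 (-0.79), Fastkd1 (-0.77), Zbtb20 (-0.77) and Dpp8 (-0.76). Clec5a, Srsy, Zbtb20 and Dpp8 were low on the array, with both group means below the first quartile of row means, 5.33. Sat1, the acetyltransferase that breaks down spermidine and spermine, was the row called in the fit on Gclm. Its slope was -1.39 (limma adjusted p = 0.0342), with a level of 6.80 in MTM13-4 and 8.76 in MTM11-4, against 9.50 to 10.61 in control embryos. Its mean was 9.63 in PJ34 embryos and 10.13 in control embryos. Without MTM13-4 the slope was -1.01 and the call was lost (adjusted p = 0.429), as it was without MTM11-3 (0.158) or MTM13-3 (0.202).

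The surrounding redox pathways were read from 7 lists of genes, and none of their rows was called between the groups. Together they held 151 distinct rows, of which 39.7% were higher in PJ34 embryos, beside 43.6% of all rows, and 12 (7.95%) had an unadjusted p under 0.05, beside 5.89% of all rows. The counts below are a description and set no list apart. Of 16 rows for glutathione synthesis and turnover, 5 were higher and 11 lower in PJ34 embryos (median difference -0.08), and 1 had an unadjusted p under 0.05: Slc3a2, the heavy chain of the cystine and amino acid exchangers, with 7.42 ± 0.47 in PJ34 embryos and 8.52 ± 1.21 in control embryos (difference -1.10, limma adjusted p = 0.823). Its partner Slc7a11, the cystine transporter, averaged 7.88 ± 0.66 in PJ34 embryos and 7.62 ± 0.90 in control embryos (limma adjusted p = 0.943). Of 38 rows for glutathione peroxidases and transferases, 13 were higher and 25 lower (median -0.05). The 2 higher rows under the unadjusted level were Mgst3, a microsomal transferase (difference 1.20), and Gpx2, a peroxidase (0.22), and the 2 lower ones were Gpx7 (-0.25) and Esd (-0.34).

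Of 25 rows of the thioredoxin, peroxiredoxin and glutaredoxin system, 9 were higher and 16 lower, and none reached the unadjusted level. Of 5 rows for superoxide dismutases and catalase, Sod1, the cytosolic dismutase, reached it with 12.13 ± 0.14 in PJ34 embryos and 11.84 ± 0.20 in control embryos (difference 0.28, limma adjusted p = 0.814). Of 15 rows for NADPH supply, 7 were higher and 8 lower, and 2 higher rows reached it: Pgd, of the pentose phosphate pathway (difference 0.35), and G6pd2 (0.36), a near copy of G6pdx, from which its probes may not be separate.

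Of 21 rows for regulators and relatives of NRF2, 10 were higher and 11 lower (median -0.01). Those under the unadjusted level were Syvn1, a ubiquitin ligase for NRF2 (difference 0.20), and 3 lower rows: Cul3, the scaffold of the KEAP1 ligase (-0.12), Mafg, a small MAF partner (-0.16), and Bach1, a repressor that competes at the same elements (-0.35). Keap1 averaged 6.33 ± 0.29 in PJ34 embryos and 6.2 ± 0.20 in control embryos (limma adjusted p = 0.920). Of 32 rows for other NRF2 targets, 13 were higher and 19 lower (median -0.02), and none reached the unadjusted level. In the fit on Gclm the median r was 0.13 for glutathione synthesis, 0.14 for peroxidases and transferases, -0.04 for the thioredoxin system, 0.06 for dismutases and catalase, -0.07 for NADPH supply, -0.01 for NRF2 regulators and 0.08 for other NRF2 targets, beside 0.10 for all rows, and none of their rows was called.

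**Figure D4:**
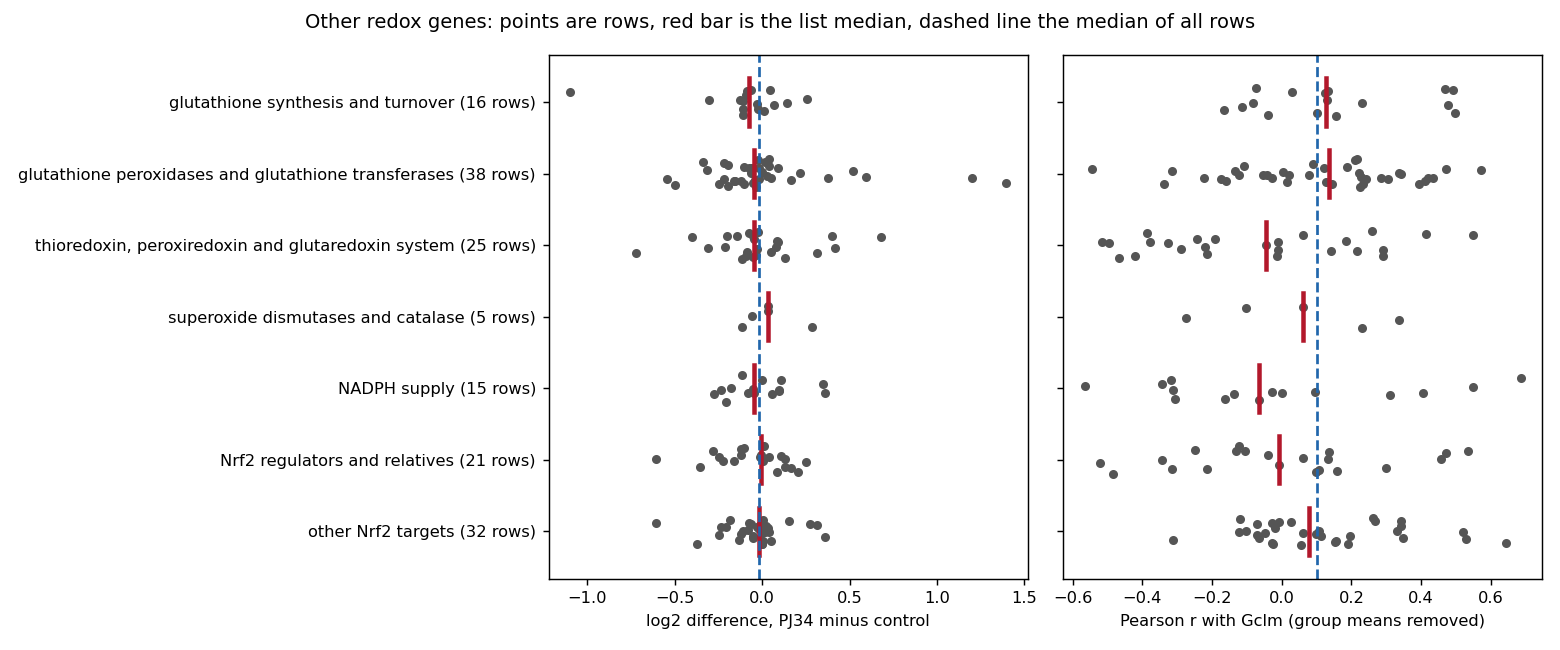
Left, log2 difference between PJ34 and control embryos, and right, Pearson r with Gclm after removal of group means, for the rows of 7 redox gene lists; points are rows, red bars list medians and the dashed line the median of all rows. The list medians lie between -0.08 and 0.03 on the left and between -0.07 and 0.14 on the right.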

How the data were processed

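RNA of each embryo was isolated, amplified with the WT-Ovation One-Direct kit and hybridized to an Affymetrix Mouse Gene ST array. The authors deposited log2 RMA intensity values (background correction, quantile normalization, log2 transformation, summary per probe set), made in Partek; neither versions nor a build of the probe sets is given in the sources used here. Amplification from a single embryo and quantile normalization can widen or flatten differences between embryos. The values were used as deposited.

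Rows were named through the platform annotation with symbols updated by gene ID; of 28815 rows, 21780 carried 1 symbol (21689 matched the gene table), 1605 several and 5430 none. Those with 1 symbol entered the comparisons, and no row with several symbols named a member. Fits were made over all of them in R 4.3.3 with limma 3.58.1 (two-sided; Benjamini-Hochberg adjusted p below 0.1, as in the study): PJ34 against control, each PJ34 embryo or sire against control embryos, and each row on the level of Gclm with group as covariate. Permutation p came from 100000 shuffles within groups, or all orders for the 7 control embryos. Scripts were tested on simulated data. Figures were drawn in Python 3.11.15 with matplotlib 3.10.9.

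Named genes were the members and the 2 rows of each list with the smallest p in each direction. The 5 rows highest and the 5 lowest in r with Gclm were also named. Keap1, Bach1, Slc7a11, Epcam, Ptprc, Pax8, Krt7, Krt19, Foxj1, Pou5f1, Usp17lb and Zfp352 were added after their values were seen. The members and lists were chosen with earlier results of these data known. Alternatives were other rows, filters, centring, variance priors, the methods' ANOVA, sire as a random block, sire means and leaving out each embryo or sire.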

Additional observations from a re-analysis of the deposited data

Results flagged for a closer look

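Of 40 combinations of a member with a group or sire of 4 to 10 embryos, 5 held an embryo far from the others. The rule used is met about 1 in 20 times by normally distributed values. The combinations overlap, since embryos of a sire also belong to the PJ34 group, and Gclc in MTM13-4 was counted more than once. The share over all rows was not taken, so the count says nothing about the members. Gclc in MTM13-4, at 11.72, stood apart among the 10 PJ34 embryos, of which the next was at 8.36, and among the 4 embryos of its sire, of which the next was at 6.36. Hmox1 in MTM13-1, at 6.16, stood apart from the other embryos of sire MTM13 (next 5.98), as did Nqo1 in MTM13-3, at 5.16 (next 4.71). Gss in the control embryo A-2, at 7.14, stood apart from the other 6 control embryos (next 6.53), and A-2 was the single embryo of its sire. The causes were not tested.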

How the results depend on the processing

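The differences of Gclm (0.60 to 0.85), Gclc (0.17 to 0.97), Gsr (-0.69 to -0.26), Nqo1 (-0.34 to -0.05), Hmox1 (0.10 to 0.31), Sqstm1 (-0.32 to -0.13) and Nfe2l2 (0.28 to 1.39) kept their sign under all alternatives planned, and no tested difference or slope of a member passed the threshold under any of them. Rows called between groups numbered 2 among rows above the median level, 2 with sire as a random block (estimated correlation -0.04), 2 without sire A, 1 without sire MTM14, and 0 to 2 with 1 embryo left out. The Gss difference was 0.00639 with arrays centred, 0.00421 with the block, 0.111 without sire A, 0.00583 without MTM11, 0.0123 without MTM13 and -0.044 to 0.111 with 1 embryo left out. That of Txnrd1 was -0.0253 on sire means, -0.117 without sire D and -0.0196 to 0.118 with 1 embryo left out, and that of Srxn1 -0.0778 to 0.0133. Rows called in single embryos summed to 1265, against 481 among rows above the median level. Member calls there were 0, against 1 with the spread of all embryos, 1 among rows above the median level (Gclc in MTM13-4, adjusted p = 0.0979) and 0 to 1 with 1 control embryo left out. Rows called on Gclm numbered 1, against 3 with no group term, 0 in PJ34 embryos alone, 0 without the 2 farthest embryos and 0 to 15 with 1 embryo left out (15 without D-3, 6 without MTM11-1). Slopes of the opposite sign were those of Gsr (-0.203 to 0.0164 with 1 embryo left out), Txnrd1 (0.0150 without the 2 farthest), Hmox1 (0.0429 with no group term), Sqstm1 (-0.0850 with no group term, -0.0238 without the 2 farthest, -0.0111 with arrays centred, -0.0213 to 0.0550 with 1 embryo left out) and Nfe2l2 (0.227 with no group term, 0.892 without the 2 farthest, -0.443 to 0.405 with 1 embryo left out). Without MTM13-4 and MTM14-1 together, an alternative chosen after seeing the data, the signs turned for the Gclc difference (-0.019) and the Nfe2l2 slope on Gclm (0.399). The causes were not tested. No paired analysis was possible because the embryo numbers of the groups pair nothing. With 7 control embryos of 3 sires, a difference between males cannot be told apart from one between treatments in a single family.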
